A study of Homo sapiens with 9 samples.

Results

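The genes described here are 36 listed genes of the type I interferon response. They were chosen by name, as genes known to be induced by interferon. Earlier results of these data were known when the list was made, so it is not independent of them. All 36 were among the 26636 genes that every library's table listed, and 26 of them had a mean of at least 1 FPKM (a level scaled for gene length and sequencing depth) over the libraries and entered the test across 13014 genes. The 10 below that level were IFI27, MX2, OAS2, RSAD2, IRF9, XAF1, CMPK2, EPSTI1, SAMD9L and TRIM22. RNA was sequenced from BT549, a human breast cancer cell line known as mesenchymal and triple-negative, labelled wild-type in all 9 libraries. The 3 groups of 3 libraries differed in the small interfering RNA given: a control (siNC), siWFDC21P-1 or siWFDC21P-2, the latter pair aimed at WFDC21P, a pseudogene-derived long noncoding RNA. Each transfection used 5 µl of a 10 µM siRNA, and cells were harvested after 48 h. The labels do not say whether the replicates were separate cultures, so the p-values measure only the spread between these libraries. No untransfected cells and no interferon-treated cells were among the groups analysed here.

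Type I interferons are secreted cytokines made when a cell senses foreign or misplaced nucleic acid. They bind the receptor chains IFNAR1 and IFNAR2, the kinases JAK1 and TYK2 are activated, and STAT2 and IRF9 act within a complex (ISGF3) that binds the interferon-stimulated response element (ISRE) in the promoters of many genes. The products degrade viral RNA, block its translation or tag proteins, and some of them (RIGI, IFIH1, IRF7) sense RNA or amplify the response. Many are also transcribed at a low basal level without added interferon, and double-stranded RNA such as an siRNA can itself be sensed in some cells, for which reason a control siRNA is the reference here.

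Of the 2 motifs searched, the ISRE core was found in most members with a promoter window. The search used the core GAAANNGAAA on both strands of RefSeq promoter windows (GRCh38.p14) of 300 bases, from 250 before to 50 after a start site. Windows were found for 29 of the 36 members, and OAS2, MX2, IFIT2, TRIM22, IRF7, USP18 and OASL had none. The core was in 21 of the 29 (72.4%), against 3.80% of the 9424 tested genes with a window and 4.38% of 27305 genes in all. The core TTCNNNGAA of the gamma-activated sequence (GAS), an element of interferon gamma signalling, was in 9 of the 29 (31.0%), against 8.46% of the tested genes and 9.38% of all genes. The stretches below carry the ISRE core (capitals, overlapping matches joined) with 20 bases on either side, 5′ to 3′ on the gene's own strand. They are shown for 6 of the 10 members with the smallest p for both siRNAs, described below. BST2 is added because its values lay on opposite sides of the control with the 2 siRNAs. Only the most upstream group of cores in the first window with a match is printed. IFI6 has 3 cores in its window and OAS3 has 2, with 1 printed for each. IFIT3 has a second window with 2 more.

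OAS3: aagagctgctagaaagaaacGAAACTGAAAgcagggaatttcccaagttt
ISG15: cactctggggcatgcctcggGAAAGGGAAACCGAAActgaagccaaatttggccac
IFIT3: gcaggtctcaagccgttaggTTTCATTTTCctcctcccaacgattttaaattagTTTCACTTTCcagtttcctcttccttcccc
IFI6: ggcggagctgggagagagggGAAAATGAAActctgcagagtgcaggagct
SAMD9: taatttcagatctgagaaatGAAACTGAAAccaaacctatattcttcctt
IFIT1: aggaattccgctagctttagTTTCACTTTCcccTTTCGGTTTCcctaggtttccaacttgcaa
BST2: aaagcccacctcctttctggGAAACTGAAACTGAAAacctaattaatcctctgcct

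These stretches lie at chr12:112938311-112938360 (OAS3, plus strand), chr1:1013364-1013419 (ISG15, plus), chr10:89327821-89327904 (IFIT3, plus), chr1:27672319-27672368 (IFI6, minus), chr7:93118086-93118135 (SAMD9, minus), chr10:89392487-89392549 (IFIT1, plus) and chr19:17405725-17405780 (BST2, minus). The cores of ISG15 and BST2 are overlapping pairs on the gene's own strand, those of IFIT1 and IFIT3 read as TTTCNNTTTC because they are on the other strand, and OAS3, SAMD9 and BST2 hold the same 10 letters GAAACTGAAA. Among the members with a window, OAS1, RIGI, STAT2, HERC6, IRF9, SAMD9L, XAF1 and CMPK2 had no match in it. A match is a description of the letters and was not read as a bound site.

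The 9 libraries did not group by siRNA. Clustered on 12899 tested genes without any listed interferon pathway gene, they fell into 3 sets. In set 1 siNC replicate 1 clustered beside siWFDC21P-1 replicates 1 and 2. Set 2 paired siWFDC21P-1 replicate 3 with the library labelled siNC replicate 2. The siWFDC21P-2 libraries and siNC replicate 3 made up set 3. Pearson correlations of log2(FPKM + 1) were 0.928 to 0.986 within the sets and 0.659 to 0.745 between them. The sets come from the values, are not groups of the study, and are called cell backgrounds only in that sense. Markers of the cell line went against the label in part. EPCAM, an epithelial adhesion gene, had 209 and 228 FPKM in set 2 and no more than 0.0731 elsewhere. CDH2, the mesenchymal cadherin, had 14.7 to 18.1 in set 3 and no more than 0.00698 elsewhere. Set 1 still held other markers of both kinds, the keratin KRT8 at 93.4 to 232 FPKM and the intermediate filament gene VIM at 38.5 to 41.0. Depth was 28.1 to 29.7 M reads in sets 1 and 2 and 16.3 to 17.4 M in set 3. WFDC21P was at 2.04 and 24.9% of the set's control in the siRNA libraries of set 1 and at 60.2, 48.3 and 30.8% in those of set 3. In set 2 it had 4 reads in the library labelled siNC replicate 2 and 7 in siWFDC21P-1 replicate 3. No lowering was therefore detectable there. WFDC21P was at 0.129 FPKM in that control, against 3.08 and 6.87 in the controls of sets 1 and 3. Whether this low level belongs to the set or to that library was not tested. Every comparison below is with the only siNC library that its set holds.

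The basal level of single interferon genes differed between the sets. In the siNC libraries the median over the 36 genes was 4.43 FPKM in set 1, 1.25 in the library labelled siNC replicate 2 and 4.69 in set 3, and their summed level was 688, 223 and 727 FPKM. The 2 controls with a like median did not hold it in the same genes. Set 1 was high in OASL, an RNA-binding relative of the oligoadenylate synthetases, at 67.0 FPKM in its control against 1.11 and 0.750 in those of sets 2 and 3. It was also high in HERC5, the ligase that attaches ISG15 to proteins, at 19.4 against 0.467 and 4.2 FPKM. Set 3 was high in IFI6, a small mitochondrial and endoplasmic reticulum protein, at 213 against 14.7 in each of the other controls. The order thus turned over from gene to gene.

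**Figure D1:**
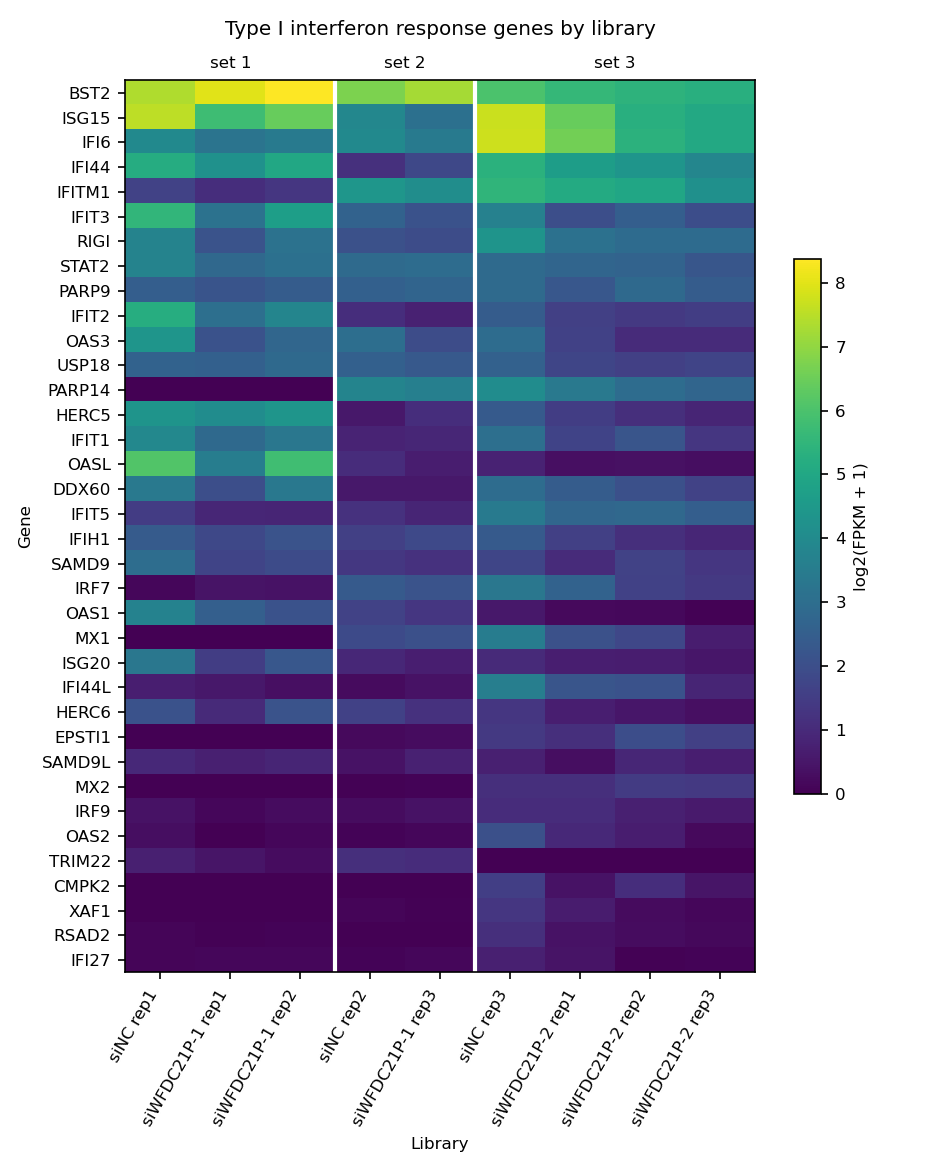
Heat map of log2(FPKM + 1) for the 36 interferon response genes (rows, ordered by mean) in the 9 libraries (columns, ordered by set and with white lines between sets). MX1, PARP14 and CMPK2 are at or near 0 throughout set 1, and BST2 is bright in every library.

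Of the 36 genes, 6 were higher in every library of set 1 than in any other library: IFIT2, ISG20, OAS1, OASL, HERC5 and BST2 (14.1% of all tested genes did the same). In set 3 there were 9 such genes, IFI6, IFI44L, IFIT5, MX2, RSAD2, IRF9, XAF1, CMPK2 and EPSTI1 (15.1% of tested genes), and in set 2 only TRIM22 (19.1%). At the low end, set 1 held IFITM1, MX1, MX2, IRF7, XAF1, CMPK2, EPSTI1 and PARP14 (8 of 36, against 13.6% of tested genes), set 2 held IFI44, IFIT1, IFIT2, ISG15, RSAD2, DDX60 and RIGI (7, against 12.6%), and set 3 held OAS1, BST2 and TRIM22 (3, against 20.6%). These counts describe sets that were defined from the libraries' values and carry no test. The shares are over tested genes only, so the counts to set beside them are those of the 26 tested members. For sets 1, 2 and 3 these were 6, 0 and 3 at the high end and 4, 6 and 2 at the low end.

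Some members were silent in a whole set at the depth reached. MX1, a dynamin-like GTPase that traps viral nucleocapsids, had 0, 2 and 0 reads in set 1, where 0 reads allow up to 0.0119 FPKM in the control, against 2.65 FPKM in the control of set 2 and 10.4 in that of set 3. CMPK2, a mitochondrial nucleotide kinase, had 0 reads in all 3 libraries of set 1 and 1 read in each of set 2, against 138 reads (1.97 FPKM) in the control of set 3. PARP14, a mono-ADP-ribosyltransferase, had 1, 0 and 0 reads in set 1 and 12.7 and 15.8 FPKM in the other controls. Its neighbour on chromosome 3, PARP9, was by contrast at 4.62, 4.99 and 6.37 FPKM in the 3 controls. TRIM22, a RING-domain antiviral factor, went the other way, with 2, 0, 0 and 0 reads in set 3 against 1.21 FPKM in the library labelled siNC replicate 2. IRF7, the factor that amplifies interferon transcription, was at 0.104, 4.14 and 9.01 FPKM in the controls of sets 1 to 3.

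Against these backgrounds, most members were lower after the WFDC21P siRNAs. With siWFDC21P-2, 32 of the 36 genes were below the control of set 3 in all 3 libraries, among them all 26 tested ones (26% of all tested genes were), and the exceptions were EPSTI1, IRF9, MX2 and SAMD9L. With siWFDC21P-1, 15 of the 36 were below their set's control in all 3 libraries (13 of 26 tested, against 20.7% of tested genes) and 4 were above it, BST2, EPSTI1, IFI27 and MX2 (27.9% of tested genes). The 13 tested members lower in all 6 siRNA libraries were IFI6, IFIT2, IFIT3, IFIT5, IFITM1, ISG15, ISG20, OAS1, OAS3, OASL, PARP14, RIGI and SAMD9, where 7.92% of tested genes were lower in all 6. For PARP14 the difference in set 1 is 0 reads in each siRNA library against 1. No member was higher in all 6 (10.8% of tested genes). Without set 2, 20 tested members were lower in each of the other 5 siRNA libraries, where 11.7% of tested genes were. In bulk RNA, fewer expressing cells and less RNA per cell cannot be told apart.

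The size of the difference varied by library. The median difference of the members from the control was -0.93, -0.33 and -0.19 log2 units in siWFDC21P-1 replicates 1, 2 and 3, and -0.71, -0.99 and -1.33 in siWFDC21P-2 replicates 1, 2 and 3. The median over all tested genes lay between -0.01 and 0.05 in the same libraries. At least 1 log2 unit below the control were 12, 6 and 1 of the 26 members with siWFDC21P-1 (4.15, 2.47 and 1.84% of tested genes) and 8, 13 and 15 with siWFDC21P-2 (0.661, 4.26 and 3.71%). The siWFDC21P-1 library with the lowest WFDC21P in set 1 (2.04% of control) had the larger difference of that pair, and the siWFDC21P-2 library with the lowest WFDC21P (30.8%) had the largest of its 3. That order held only within each siRNA: siWFDC21P-1 replicate 2, with WFDC21P at 24.9% of control, had a smaller difference (-0.33) than siWFDC21P-2 replicates 1 and 2, with 60.2 and 48.3% (-0.71 and -0.99). It is a description of 5 libraries and was not tested. The smallest difference was in set 2, where no lowering of WFDC21P was detectable.

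**Figure D2:**
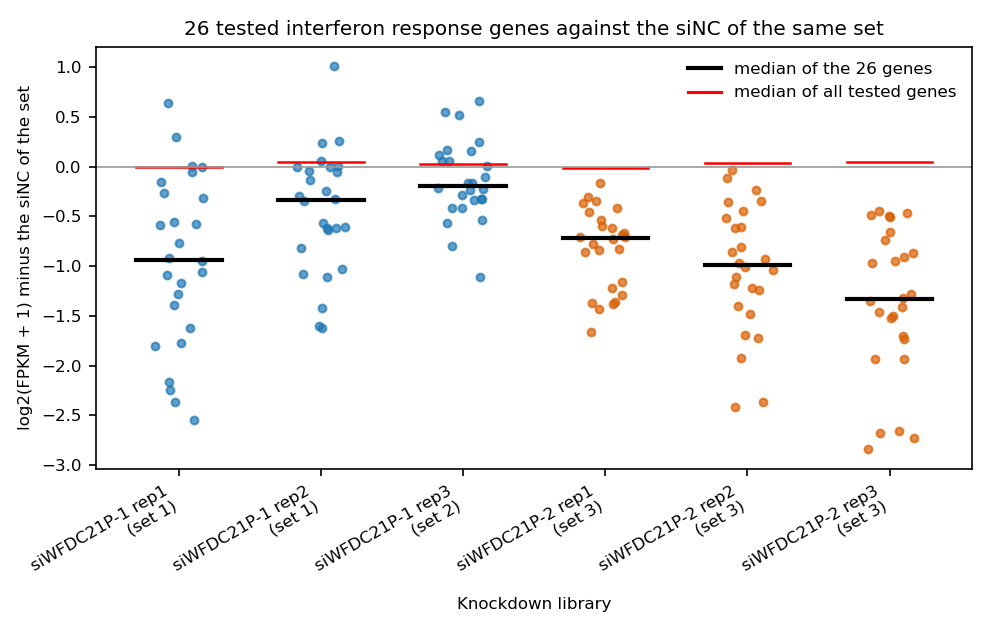
Each point is 1 of the 26 tested interferon response genes in 1 siRNA library, as log2(FPKM + 1) minus the value of its set's siNC library, with horizontal jitter only. Black bars are the medians of the 26 genes and red bars those of all tested genes. In the 3 siWFDC21P-2 libraries all 26 points lie below 0.

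No single member passed the test in the fit of all 9 libraries, in which limma compared the groups with the set as a covariate on log2(FPKM + 1), a scale that understates changes of low genes. With siWFDC21P-1, 0 of 26 members were among the 3 genes called at an adjusted p of 0.05 (0.0231% of tested genes), and 9 had an unadjusted p under 0.05, 8 lower and 1 higher (5.06% of tested genes lower and 8.69% higher). With siWFDC21P-2, 0 of 26 were called where no gene was (0%), and 15 had an unadjusted p under 0.05, all lower (2.35% of tested genes; 682 genes in either direction). With both siRNAs under 1 coefficient, 0 of 26 were called beside 1 gene in all (0.00768%), and 13 had an unadjusted p under 0.05, all lower (5.22% of tested genes lower and 9.16% higher). limma-voom on recovered reads likewise called 0 of its 24 members in each of these comparisons. The median fold change of the 26 members was -0.44 with siWFDC21P-1, -0.98 with siWFDC21P-2 and -0.62 with both, against 0.03, 0.02 and 0.03 over all tested genes.

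The calls rested on 1 library. Without siWFDC21P-2 replicate 1, which had the smallest differences of its group, limma called 902 genes for siWFDC21P-2, and 8 members fell: ISG15, IFI6, MX1, OAS3, IRF7, HERC5, IFIH1 and PARP14 (2.61% of tested genes fell). With both siRNAs, 204 genes were then called and OAS3 and ISG15 fell (0.307% of tested genes fell). Over the tested genes outside the interferon lists, on the log2(FPKM + 1) scale, siWFDC21P-2 replicate 1 correlated with siNC replicate 3 at r = 0.985 and siWFDC21P-2 replicates 2 and 3 with each other at r = 0.986, and values across these pairs were 0.928 to 0.942. The fit without replicate 1 therefore sets siNC replicate 3 against a pair of libraries that stood apart from it and from replicate 1 alike. No member was called when any other single library was left out. The adjusted p-values of this fit quoted below for single genes hold only for that choice of libraries. The siWFDC21P-2 values all hang on siNC replicate 3, the only control of set 3, and no fit without it can give them.

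**Figure D3:**
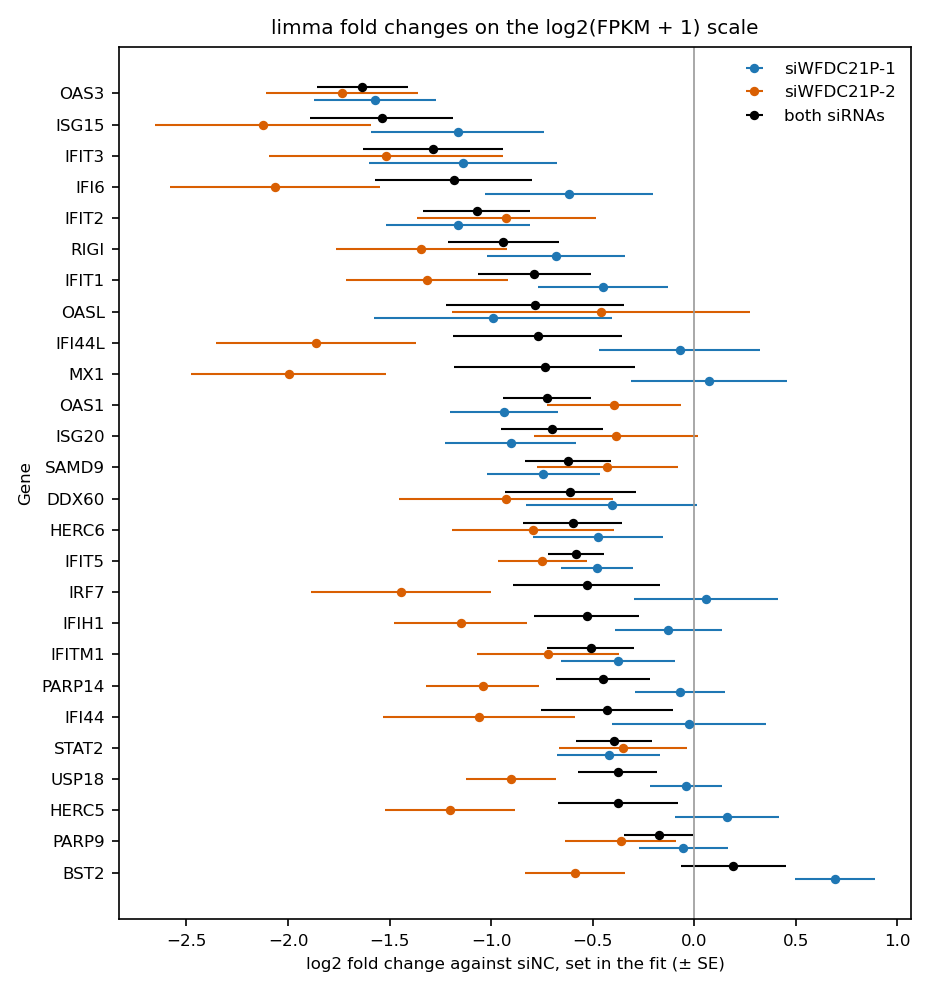
limma log2 fold changes (points) with standard errors (bars) on the log2(FPKM + 1) scale for the 26 tested genes, ordered by the value for both siRNAs, with the set in the fit and all 9 libraries. OAS3 heads the list at -1.63, and BST2 alone has a positive value for both siRNAs.

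Among the oligoadenylate synthetases, which make the second messenger that switches on RNase L, OAS3 had the smallest p of all members for both siRNAs. OAS3 (chromosome 12, 112938352 to 112973249, plus strand, hg38) was at 19.6 FPKM in the control against 3.36 and 5.79 in set 1, at 7.19 against 2.81 in set 2, and at 6.78 against 2.04, 1.06 and 1.04 in set 3. Each siRNA library was below its control, at between 15.4 and 39.1% of it. The fold change with both siRNAs was -1.63 ± 0.22 (SE; limma adjusted p = 0.0969), the 6th smallest p among the 13014 genes. It was -1.57 ± 0.30 with siWFDC21P-1 and -1.73 ± 0.38 with siWFDC21P-2, and without siWFDC21P-2 replicate 1 the value for both was -1.70 ± 0.21 (adjusted p = 0.0222).

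OAS1, its neighbour at 112906777 to 112933222, had its expression mostly in set 1. It was at 12.1 FPKM against 4.86 and 3.28 in set 1, at 2.17 against 1.52 in set 2, and at 0.459 against 0.151, 0.145 and 0.0353 in set 3. All 6 siRNA libraries were below their control, but those of set 3 rest on 13, 12 and 3 reads against 37. The fold change was -0.94 ± 0.27 with siWFDC21P-1 and -0.72 ± 0.22 with both siRNAs (adjusted p = 0.214 and 0.232). OAS1 shares 92 exon bases with an antisense gene, and the strandedness of the libraries is not given in the sources used here.

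OASL was at 67.0 FPKM against 10.6 and 54.5 in set 1, at 1.11 against 0.577 in set 2, and at 0.750 against 0.278, 0.289 and 0.248 in set 3. The siRNA libraries were all lower, but the 2 of set 1 differed from each other more than siWFDC21P-1 replicate 2 did from the control. Its fold change with both siRNAs was -0.78 ± 0.44 (adjusted p = 0.44). OAS2, too low to be tested, was seen mainly in set 3, at 3.09 FPKM against 0.955, 0.601 and 0.158, which is 30.9, 19.5 and 5.12% of the control (counting interval of the last, 2.94 to 8.33%).

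The IFIT genes, some of whose products bind the 5′ ends of foreign RNA, sit together on chromosome 10, and all 4 were lower on average with each siRNA. IFIT3 (89327894 to 89340971) was at 44.8 FPKM against 7.88 and 25.1 in set 1, at 5.23 against 3.30 in set 2, and at 11.9 against 3.07, 4.69 and 2.95 in set 3. IFIT2 (89283694 to 89309276) was at 36.3 against 7.32 and 13.0, at 1.14 against 0.703, and at 4.37 against 2.02, 1.62 and 1.86 FPKM. In both genes every siRNA library was below its control. The fold changes with both siRNAs were -1.29 ± 0.35 for IFIT3 and -1.07 ± 0.26 for IFIT2 (limma adjusted p = 0.205 and 0.193).

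IFIT5, the member of the cluster with the steadiest differences, was at 1.81 FPKM against 0.878 and 0.831 in set 1, at 1.27 against 0.815 in set 2, and at 9.83 against 5.74, 6.09 and 4.61 in set 3. The 6 libraries stood between 46.0 and 64.3% of their controls. Its fold change of -0.58 ± 0.14 was the smallest of the cluster, though it had the smallest p of the 4 (adjusted p = 0.181). IFIT1 was at 14 against 6.23 and 8.88, at 0.797 against 0.871, and at 7.33 against 2.23, 3.61 and 1.51 FPKM. It was lower in sets 1 and 3, and in set 2 the pair differed by less than the counting error (109%, 95% interval 83.1 to 144%). Its fold change was -0.79 ± 0.28 with both siRNAs (adjusted p = 0.271).

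ISG15 is a ubiquitin-like protein that is secreted and attached to other proteins, and with BST2 and IFI6 it made up most of the members' summed level. ISG15 (chromosome 1, 1001138 to 1014540, plus strand) was at 187 FPKM in the control against 54.2 and 86.0 in set 1, at 13.8 against 7.48 in set 2, and at 210 against 85.3, 38.4 and 32.4 in set 3. All 6 siRNA libraries were below their controls, and the control of set 2 was below every library of sets 1 and 3. The fold change was -1.17 ± 0.43 with siWFDC21P-1, -2.12 ± 0.53 with siWFDC21P-2 and -1.54 ± 0.35 with both (adjusted p = 0.293, 0.756 and 0.174). Without siWFDC21P-2 replicate 1 the values were -2.54 ± 0.33 for siWFDC21P-2 and -1.66 ± 0.31 for both (adjusted p = 0.0145 and 0.0487).

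HERC5 and USP18, enzymes of the ISG15 pathway, did not share that pattern in sets 1 and 2. HERC5 was at 19.4 FPKM against 15.9 and 19.5 in set 1, at 0.467 against 1.14 in set 2, and at 4.2 against 1.87, 1.2 and 0.818 in set 3. USP18, which removes ISG15 and blocks the interferon receptor, was at 5.14 against 4.90 and 6.27, at 4.93 against 4.09, and at 5.01 against 2.38, 1.99 and 2.30 FPKM. HERC5 and USP18 were thus near or on either side of the control after siWFDC21P-1 and at 19.5 to 47.4% of it after siWFDC21P-2. USP18 has near-identical copies in the genome, and how their reads were counted is not given in the sources used here. HERC6, the neighbour of HERC5, was at 3.28 against 1.01 and 3.46, at 2.04 against 1.28, and at 1.48 against 0.615, 0.423 and 0.271 FPKM, lower in 5 of the 6 siRNA libraries.

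IFI6 (chromosome 1, 27666061 to 27672218, minus strand) had the second largest fold change with siWFDC21P-2 on the log2(FPKM + 1) scale, after ISG15. It was at 14.7 FPKM against 8.27 and 9.66 in set 1, at 14.7 against 9.62 in set 2, and at 213 against 95.2, 40.6 and 32.5 in set 3. The siWFDC21P-1 libraries stood at 56.1 to 65.6% of their controls and the siWFDC21P-2 libraries at 44.7, 19.0 and 15.3%. The fold change was -0.62 ± 0.41 with siWFDC21P-1, -2.06 ± 0.52 with siWFDC21P-2 and -1.18 ± 0.39 with both (adjusted p = 0.55, 0.756 and 0.25). Leaving out siWFDC21P-2 replicate 1 gave -2.52 ± 0.20 for siWFDC21P-2 (adjusted p = 0.00506), the smallest adjusted p of any member in that fit.

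IFI44 and IFI44L, adjacent genes on chromosome 1 with products of less certain function, were below the control in sets 1 and 3 and above it in set 2. IFI44 was at 35.0 FPKM against 17.6 and 31.8 in set 1, at 1.23 against 2.53 in set 2, and at 39.8 against 24.0, 19.9 and 13.4 in set 3. IFI44L was at 0.618 against 0.456 and 0.273, at 0.193 against 0.337, and at 11.0 against 3.61, 3.31 and 0.818 FPKM. In set 2 both were above the library labelled siNC replicate 2 (206% with a 95% counting interval of 154 to 277%, and 174% with 124 to 247%). With siWFDC21P-2 the fold change was -1.06 ± 0.47 for IFI44 and -1.86 ± 0.49 for IFI44L, and with siWFDC21P-1 it was -0.03 ± 0.38 and -0.07 ± 0.40 (limma adjusted p = 0.756 for each of the former and 0.992 and 0.965 for the latter).

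**Figure D4:**
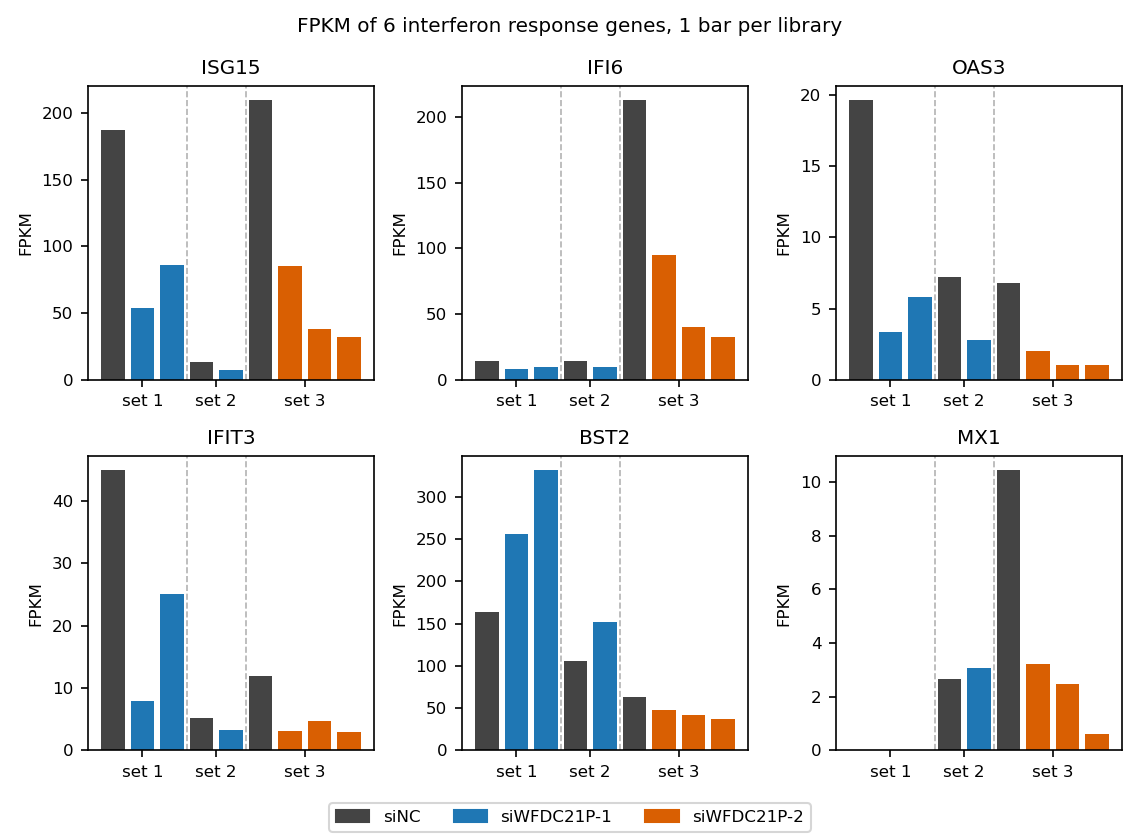
FPKM of ISG15, IFI6, OAS3, IFIT3, BST2 and MX1, 1 bar per library, in the order siNC then siRNA libraries within each set (dashed lines part the sets), each panel with its own axis from 0. ISG15, IFI6, OAS3 and IFIT3 are below the control in every siRNA library, BST2 is above it with siWFDC21P-1, and MX1 is at or near 0 in set 1.

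MX1 (chromosome 21, 41420304 to 41459214, plus strand) was measurable in sets 2 and 3 only. It was at 2.65 FPKM against 3.08 in set 2 and at 10.4 against 3.23, 2.48 and 0.594 in set 3. The siWFDC21P-2 libraries stood at 31.0, 23.8 and 5.70% of the control, whereas siWFDC21P-1 replicate 3 was at 116% (95% counting interval 105 to 130%). The fold change was -2.0 ± 0.48 with siWFDC21P-2 (adjusted p = 0.756), and -2.28 ± 0.42 without siWFDC21P-2 replicate 1 (adjusted p = 0.0336). MX2, the neighbouring gene whose product restricts retroviruses at the nuclear pore, had 256 reads in the control of set 3 and stood at 97.0, 147 and 136% of it. Within the same 3 libraries the neighbours therefore differed in direction, MX1 below and MX2 near or above the control.

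Of the cytosolic RNA sensors, RIGI (also DDX58; chromosome 9, 32455705 to 32526324, minus strand) was lower in all 6 siRNA libraries. It was at 12.5 FPKM against 3.40 and 7.83 in set 1, at 3.17 against 2.89 in set 2, and at 19.3 against 7.70, 6.69 and 6.62 in set 3. The siWFDC21P-2 libraries lay close together at 34.3 to 40% of the control, and siWFDC21P-1 replicate 3 was within counting error of its own (91.1%, 95% interval 78.7 to 106%). The fold change with both siRNAs was -0.94 ± 0.27 (adjusted p = 0.223). IFIH1 (MDA5) was at 4.24 FPKM against 2.5 and 3.44, at 2.01 against 2.57, and at 4.12 against 1.99, 1.2 and 0.861. It was lower in sets 1 and 3 and higher in set 2, with -1.15 ± 0.33 for siWFDC21P-2 (adjusted p = 0.756) and -1.34 ± 0.28 without siWFDC21P-2 replicate 1 (adjusted p = 0.044). DDX60, a helicase linked to RIG-I signalling, was at 9.49 against 3 and 9.19, at 0.456 against 0.464, and at 6.84 against 4.41, 3.13 and 2.15 FPKM, so that siWFDC21P-1 replicate 1 and the siWFDC21P-2 libraries were low.

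The transcription factors of the pathway were split. STAT2, the ISGF3 subunit with the transactivation domain, was at 12.4 FPKM against 6.09 and 7.61 in set 1, at 6.47 against 6.76 in set 2, and at 6.44 against 5.64, 5.31 and 3.72 in set 3, with -0.39 ± 0.19 for both siRNAs (adjusted p = 0.374). IRF7 was at 0.104 against 0.355 and 0.321, at 4.14 against 3.37, and at 9.01 against 5.14, 2.09 and 1.62 FPKM. STAT2 was thus lower in 5 of 6 libraries, and IRF7 in the 4 of sets 2 and 3. For IRF7 the siWFDC21P-2 fold change was -1.45 ± 0.44 (adjusted p = 0.756), and -1.82 ± 0.23 without siWFDC21P-2 replicate 1 (adjusted p = 0.0138). In set 1 IRF7 was higher, from 8 reads in the control to 27 and 25. IRF9, the DNA-binding subunit of ISGF3, was at most at 1.11 FPKM in any library and stood at 102, 62.5 and 49.5% of the control in set 3. It shares 1838 exon bases (48.4% of its exon length) with another annotated gene on the same strand, so its level is uncertain.

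BST2 (tetherin), which holds budding virions at the cell surface, was the most abundant member on average and the only tested one on opposite sides of the control with the 2 siRNAs in every library. BST2 (chromosome 19, 17402939 to 17405648, minus strand) was at 164 FPKM against 255 and 331 in set 1, at 106 against 152 in set 2, and at 63.5 against 47.3, 41.4 and 37.7 in set 3. All 3 siWFDC21P-1 libraries were above their controls (156, 202 and 143%) and all 3 siWFDC21P-2 libraries below theirs (74.4, 65.3 and 59.3%). The fold change was 0.69 ± 0.20 with siWFDC21P-1 and -0.59 ± 0.25 with siWFDC21P-2 (adjusted p = 0.214 and 0.756). IFITM1, a membrane protein that hinders viral fusion, was at 2.12 against 1.12 and 1.5 in set 1, at 20.2 against 16.4 in set 2, and at 43.5 against 33.5, 30 and 17.3 in set 3. It was lower in all 6 siRNA libraries, with -0.51 ± 0.21 for both siRNAs (adjusted p = 0.331), and shares 32.5% of its exon bases with the annotated exons of IFITM2, so reads may be split between them.

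ISG20, an RNA exonuclease, was at 8.97 FPKM against 1.85 and 3.87 in set 1, at 0.898 against 0.633 in set 2, and at 1.01 against 0.625, 0.584 and 0.411 in set 3. SAMD9, a restriction factor for poxviruses, was at 6.89 against 2.26 and 2.73, at 1.57 against 1.29, and at 2.38 against 1.05, 2.12 and 1.48 FPKM. Both were lower in all 6 siRNA libraries, and SAMD9 by the most in set 1. ISG20 was at 20.7 and 43.2% of the control in set 1, and at 40.8% in siWFDC21P-2 replicate 3 of set 3. The fold changes with both siRNAs were -0.70 ± 0.25 for ISG20 and -0.62 ± 0.21 for SAMD9 (adjusted p = 0.278 and 0.262). SAMD9L, next to SAMD9, was at most at 0.958 FPKM and showed no common direction, at 71.3 and 85.8% of the control in set 1, 228% in set 2, and 36.5, 129 and 97.3% in set 3.

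The ADP-ribosyltransferases PARP9 and PARP14 lie near each other on chromosome 3 and differed in size of response. PARP14 was at 12.7 FPKM against 11.3 in set 2 and at 15.8 against 9.56, 6.79 and 5.58 in set 3. PARP9 was at 4.62 against 3.52 and 4.40, at 4.99 against 5.50, and at 6.37 against 3.88, 6.2 and 4.36 FPKM. PARP14 was lower in each of these libraries, and PARP9 was lower in set 3, though only slightly in siWFDC21P-2 replicate 2 (97.4%, 95% counting interval 88.8 to 107%). The siWFDC21P-2 fold change was -1.04 ± 0.28 for PARP14 and -0.36 ± 0.27 for PARP9 (adjusted p = 0.756 for each), and for PARP14 it was -1.23 ± 0.19 without siWFDC21P-2 replicate 1 (adjusted p = 0.0225). PARP9 shares 217 exon bases with DTX3L on the opposite strand.

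The remaining members under a mean of 1 FPKM were read best in set 3. RSAD2 (viperin), which makes a chain-terminating nucleotide, had 93 reads in the control against 28, 18 and 12, and stood at 28.2, 18.9 and 12.2% of it. XAF1, a pro-apoptotic protein, had 162 reads against 64, 22 and 13 (37.0, 13.2 and 7.61%), and CMPK2 had 138 against 25, 81 and 28 (17.0, 57.2 and 19.2%). All 3 were below the control beyond counting error in each siWFDC21P-2 library. IFI27, a mitochondrial protein often used as an interferon marker, had 44 reads against 26, 2 and 4 in set 3, while in sets 1 and 2 it had 8 to 14 reads in every library. EPSTI1, with 131 reads in the control of set 3, stood at 71.5, 180 and 122% of it. Of XAF1's exon bases, 38.3% are shared with an annotated gene on the opposite strand. In sets 1 and 2 none of RSAD2, XAF1 and CMPK2 had more than 14 reads in any library. TRIM22 was lower in all 6 siRNA libraries, but in set 3 this is 0 reads in each against 2.

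The difference between the siRNAs was tested in the same fit. For 0 of 26 members and 0 of 13014 genes (0%) did limma call the siWFDC21P-2 change different from the siWFDC21P-1 change. An unadjusted p under 0.05 was found for 8 members, USP18, MX1, HERC5, BST2, IFI44L, PARP14, IRF7 and IFIH1, each more negative with siWFDC21P-2 (3.05% of tested genes), and for 703 genes in all, and limma-voom called none either. For BST2 the difference was -1.28 ± 0.31 and for MX1 -2.07 ± 0.61 (adjusted p = 0.83 for each). OAS3 had a difference of -0.16 ± 0.48 and IFIT2 one of 0.24 ± 0.57, intervals that leave room for sizeable differences either way. Without siWFDC21P-2 replicate 1, limma called 182 genes, among them IFI6 (-1.90 ± 0.25) and IRF7 (-1.87 ± 0.29) as more negative with siWFDC21P-2 (adjusted p = 0.0306 and 0.0418; 0.653% of tested genes). The siRNA and the set cannot be told apart here, because siWFDC21P-2 was given only in set 3 and siWFDC21P-1 only in sets 1 and 2.

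Members with and without the ISRE core can be set side by side. Among the 21 members with an ISRE core in their window, 20 were lower in all 3 siWFDC21P-2 libraries, the exception being EPSTI1. The same held for 6 of the 8 without a core and 6 of the 7 with no window. The median siWFDC21P-2 fold change was -1.10 over the 18 tested members with the core and -0.60 over the 4 tested members without it. No such gap was seen with both siRNAs, where these medians were -0.62 and -0.66, and 9 of the 21 with the core and 3 of the 8 without it were lower in all 6 libraries. RIGI, with no core in its window, was at -1.34, and BST2, with an overlapping pair, was at -0.59. These fold changes are on the log2(FPKM + 1) scale, which understates changes of low genes. OAS1 and HERC6, tested members without the core, were at only 0.459 and 1.48 FPKM in the control of set 3. Whether the siWFDC21P-2 gap would hold for plain ratios was not tested.

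Other genes of the pathway were taken from lists by role, and limma called none of them with either siRNA or with both. Of 14 interferon genes, IFNB1 and IFNE were listed, IFNB1 at no more than 0.201 FPKM in any library and IFNE, an epithelial interferon, at 0.120 to 2.30. Among 15 tested nucleic acid sensors and adaptors, 1 was lower and 1 higher with both siRNAs at an unadjusted p under 0.05. Over all tested genes, 5.22% were lower and 9.16% higher at that level. The counts of the lists in this paragraph are small and were not tested against those shares. TRAF3, an adaptor of the sensors, had 0.59 ± 0.16, and TICAM1, the adaptor of TLR3, -0.41 ± 0.16 (adjusted p = 0.2 and 0.3). STING1, the adaptor of cytosolic DNA sensing, differed between the sets, at 11.9, 18.6 and 0.414 FPKM in the controls of sets 1 to 3. After siWFDC21P-1 it was also lower than the control, at 4.92 and 7.16 FPKM in set 1 and 9.99 in set 2. Its fold change was -0.87 ± 0.20 with siWFDC21P-1 and 0.15 ± 0.25 with siWFDC21P-2 (limma adjusted p = 0.152 and 0.878). Of 12 tested receptor and JAK-STAT genes, 2 were lower and 1 higher at that level. IRF1 was the leading one, with -0.62 ± 0.18 (adjusted p = 0.223), and IFNAR1, the receptor chain, was at 16.7 FPKM against 9.61 and 7, at 18.5 against 13.8, and at 10.7 against 11.6, 7.29 and 7.19. Of 12 tested negative regulators 1 was lower and 1 higher, the latter being PTPN11, a phosphatase (0.55 ± 0.16, adjusted p = 0.222).

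A list of 53 other interferon-stimulated genes, 41 of them tested, had median fold changes of the same sign that were nearer to 0. Lower in all 3 siWFDC21P-2 libraries were 25 of the 41, lower in all 3 siWFDC21P-1 libraries 10, and lower in all 6 libraries 7 (26, 20.7 and 7.92% over all tested genes, as above). The median fold change was -0.10 with siWFDC21P-1, -0.28 with siWFDC21P-2 and -0.22 with both. At an unadjusted p under 0.05 with both siRNAs, 8 of the 41 were lower and none higher (5.22 and 9.16% of tested genes). TOR1B, a torsin family ATPase, had -0.91 ± 0.28 and APOL6, an apolipoprotein L, -1.04 ± 0.36 (adjusted p = 0.24 and 0.262). Of 8 tested genes that respond more to interferon gamma, 6 were lower in all 3 siWFDC21P-2 libraries and 1 in all 3 siWFDC21P-1 libraries. ICAM1, an adhesion molecule, had -0.67 ± 0.23 with both siRNAs (adjusted p = 0.269).

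Marker genes of other cell types moved within the sets too. The summed level of 13 fibroblast and mesenchymal markers in set 3 was 502 FPKM in the control and 549, 916 and 873 in siWFDC21P-2 replicates 1 to 3, with 0 or 1 of them at 0. Its members went in different directions: COL3A1, a fibrillar collagen, was at 5.75 FPKM in the control against 23.0, 242 and 221, and VIM, an intermediate filament, at 310.4 against 309, 162 and 178. The 10 epithelial markers summed to 494 FPKM in the control of set 1 against 218 and 279, to 1833 in the library labelled siNC replicate 2 against 1177, and to 34.4 in the control of set 3 against 31.8, 18.3 and 21.5. In set 2 these markers also went in different directions. KRT19 was at 925 FPKM against 474, whereas EPCAM was at 209 against 228 and CDH1 at 42.7 against 59.6. Of 14 leukocyte markers 7 were listed, with PTPRC, the pan-leukocyte gene, at no more than 0.160 FPKM in any library. Their sum was 32.4 and 40.2 FPKM in set 2, most of it CD14 (29.6 and 36.1), and 1.41 to 9.10 elsewhere. The endothelial markers (7 of 8 listed) summed to 2.62 to 31.5 FPKM, with VWF at no more than 0.0719. KDR supplied most of the set 2 sum (19.4 FPKM in the library labelled siNC replicate 2, 25.7 in siWFDC21P-1 replicate 3). Outside set 2, KDR never exceeded 0.00930. EGFL7 ranged from 1.97 to 12.0 over all libraries, and ERG from 1.15 to 4.58 within set 1. Within set 3, TEK values were 0.192 (control), then 0.168, 1.98 and 4.94 FPKM (siWFDC21P-2 replicates 1 to 3). The part of these shifts in the interferon gene differences was not tested.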

How the data were processed

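The authors deposited 1 table of FPKM values per library, by Ensembl gene. Per the submitters' processing notes the tools were HISAT2 2.1.0, Bowtie2 2.2.3 and HTSeq 0.6.0 with hg38, without the step each served. Strandedness is not given in the sources used here. The tables came in 2 naming styles that list 34377 and 29104 genes, and 26636 are in both. With exon lengths of GENCODE release 29, 94.9 to 95.7% of low values were whole reads (within 0.02), which gave the depths and the reads of 24770 genes (93.0%). ISG15 and IFIH1 gave none. Counting intervals (95%, exact) cover counting error only.

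On the log2(FPKM + 1) scale, 13014 genes whose mean reached 1 FPKM were fitted with limma 3.58.1 under R 4.3.3, using trended variances, group and set as terms, and Benjamini-Hochberg adjustment at 0.05. Sets came from average-linkage clustering of 1 minus Pearson r, split at a height of 0.15. The fit was tested on simulated data. Members and lists were chosen with earlier results of these data known. Genes described singly had a mean of at least 1 FPKM, with per-library values for any passing, for the 10 smallest p with both siRNAs and for the 6 highest means, and for others by role. Of each other list, up to 4 genes with the smallest p for both siRNAs could be named, and STING1 is among these. Gene positions are from GENCODE and promoter sequences from RefSeq.

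The alternatives were the naming style, no covariate or 2 sets in place of the 3, a replicate block, other pseudocounts and filters, median-of-ratios scaling, no variance trend, limma-voom on recovered reads, and leaving out each library. Leaving out each set was added after the values had been seen.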

Additional observations from a re-analysis of the deposited data

Results flagged for a closer look

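BST2 and IFI27 lay on opposite sides of the control after the 2 siRNAs in every library. For BST2 the mean difference from the control (log2(FPKM + 1)) was lower by 1.31 with siWFDC21P-2 than with siWFDC21P-1 (-1.31), with 164, 106 and 63.5 FPKM in the siNC libraries of sets 1 to 3, the second of them the library labelled siNC replicate 2. The limma contrast of the 2 changes gave -1.28 ± 0.31 (adjusted p = 0.83), so the difference did not pass over all genes.

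For IFI27 the same quantity was -0.58. In sets 1 and 2 its difference rests on 11 reads against 14 and 14 and on 8 against 13, with counting intervals that include the control (for example 129%, 54.3 to 313%), and in set 3 on 44 against 26, 2 and 4. IFI27 was under the mean of 1 FPKM, and its difference between the siRNAs was not tested.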

How the results depend on the processing

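Of the values that answer a comparison, 146 stayed within the limits set for them under the alternatives and 47 moved. The count of genes called for siWFDC21P-1 (3) was 26 with a mean of at least 5 FPKM, 13 with limma-voom, and 0 with the naming style, no covariate, the replicate block, no filter, median-of-ratios scaling, 2 sets, or without set 1 or set 3. For siWFDC21P-2 (0) it was 17 with no filter. For both siRNAs (1) it was 2 with a pseudocount of 0.1 and 0 with the naming style, no covariate, the replicate block, no filter, the scaling, 2 sets or any set left out. For the difference between the siRNAs (0) it was 7 with no filter. Leaving out 1 library gave 0 to 153, 0 to 902, 0 to 204 and 0 to 182 calls in these 4 comparisons, the highest each time without siWFDC21P-2 replicate 1. The scaling moved the split at an unadjusted p under 0.05 with siWFDC21P-1 from 1131 higher and 659 lower to 928 and 875, and with both siRNAs from 1192 and 679 to 998 and 890. The median of the members for siWFDC21P-2 (-0.98) was -1.33 with a pseudocount of 0.1 and -1.35 with limma-voom. Members lower in every library were 14 for siWFDC21P-2 at a mean of at least 5 FPKM, where only 14 are tested, and 13 to 20 for siWFDC21P-1 and for both when 1 library was left out. The median level in set 2 (1.23 FPKM) was 1.15 after scaling.

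Values of single genes stayed on the same side of 0 and of the threshold in 1448 cases, newly passed it in 11 and reversed in 21. Without a covariate, which sets libraries of different sets against each other, the siWFDC21P-2 value was 0.45 for IFI6, 0.40 for IFI44, 0.21 for IFI44L, 0.65 for IFIT5, 0.91 for IFITM1 and 0.41 for PARP14, the siWFDC21P-1 value of OAS1 was 0.020, the value for both was 0.10 for IFI44 and -0.054 for BST2, and the difference between the siRNAs was 1.29 for IFI44L, 0.84 for MX1, 0.89 for IRF7 and 1.82 for PARP14. For both siRNAs, leaving out siNC replicate 3 or set 3 (so that only siWFDC21P-1 enters) gave 0.073 for MX1, 0.058 for IRF7 and 0.16 for HERC5, and leaving out siNC replicate 1 or set 1 gave -0.15 for BST2. With 1 library left out at a time the values ran from -1.13 to 0.073 for MX1, -0.96 to 0.058 for IRF7, -0.70 to 0.16 for HERC5 and -0.15 to 0.69 for BST2. The cause of the other shifts was not tested. No siWFDC21P-2 value can be had without siNC replicate 3 or set 3. The replicate numbers did not pair the libraries. Taken as deviations from the mean of their siRNA group, same-numbered ones correlated at -0.68 to 0.67. The replicate block gave 0 calls in each comparison. Depth limits the members with few reads, and it was lower in set 3 than in sets 1 and 2.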
